A study of Homo sapiens with 4 samples.

Results

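The effect of the culture medium alone was read from MDA-MB231 cells that carried a control shRNA. The array of cells kept in Stem Cell Media (SCM) was set over the array of the same line kept in DMEM with 10% FBS, after 30 h in each medium. Members are all genes that stand alone on a probe set, which is a set of short probes against the same transcript, and there are 11963 of them, read from 19070 of the 22277 probe sets of a human Affymetrix array. MDA-MB231 is a human breast cancer line of mesenchymal type without estrogen receptor protein. The study asked what PIAS1, a SUMO ligase and transcriptional repressor, does in breast tumor-initiating cells. It measured 4 conditions on 1 array each, namely stable MDA-MB231 lines with control shRNA or PIAS1 shRNA2, each in both media. The comparison of media used the 2 control shRNA arrays, and the 2 PIAS1 shRNA2 arrays served only to see whether another line differed in the same way. With 1 array per condition there is no replicate check of any ratio, so p-values are not given. Whether the lines are clones or pools of transduced cells was not given in the sources used here. Per the study's methods SCM is built on DMEM/F-12 and holds albumin, EGF, basic FGF and insulin in place of serum. The media therefore differ in the base medium, in serum and in the added factors at once, and the parts of these changes cannot be told apart. Whether the SCM cultures for the arrays were attached was not given in the sources used here, so a difference in attachment cannot be told apart either.

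Serum supplies growth factors, lipids, hormones and lysophospholipids, and the last of these keep the transcription co-activator YAP in the nucleus. EGF and basic FGF signal through receptor tyrosine kinases to the kinase ERK, which turns on immediate early genes within minutes and then the genes of its own inhibitors. Insulin acts through the kinase AKT, which keeps FOXO transcription factors out of the nucleus. Entry into S phase needs E2F factors, which drive the genes of the replication machinery, and mitotic genes follow later through the DREAM and B-MYB complexes. Scarce oxygen stabilizes the factor HIF, which turns on glucose transporters, glycolytic enzymes and vessel growth factors.

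The deposited values are MAS5 signals, array intensities on a linear scale. Signals up to 208 were treated as background, which was the highest of the 4 arrays' 75th percentiles over 114 probe sets of 72 genes of other tissues. Lower signals were raised to this floor, so that a ratio with its dimmer signal below it is a bound, written as at least N-fold. Above the floor on at least 1 control array were 8907 genes, and 3056 were under it on both. The median signal was 569 in DMEM and 605 in SCM, and the 75th percentile of the background genes was 140 and 208. Their 95th percentile was 327 in DMEM and 476 in SCM, so signals not far above the floor may still be background. The trimmed mean, which leaves out 2% at each end, was 2501 on both arrays. The ratio of 3' to 5' signal, a measure of RNA integrity, was 0.982 in DMEM and 1.07 in SCM for ACTB, and 0.86 and 0.834 for GAPDH. The line carried its markers. The mesenchymal filament gene VIM read 65060 in DMEM and 71017 in SCM, and the adhesion receptor gene CD44 read 30876 and 55568. EGFR, the receptor gene of EGF, read 5538 and 5857, while the epithelial cadherin gene CDH1 and the progesterone receptor gene PGR were under the floor in both media. ESR1, the estrogen receptor gene, read 216 in DMEM and 706 in SCM on 1 of its 9 probe sets, while another read 123 and 247 and the rest were under the floor in both media.

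SCM exceeded DMEM by 2-fold or more in 943 genes, which is 7.88% of all genes, and 966 were at least 2-fold lower, or 8.07%. These shares are the background against which each group below is read. At least 4-fold higher were 170 genes and lower 163, at least 8-fold higher were 39 and lower 17, and at least 16-fold higher were 12 and lower 3. The largest differences were thus more often upward. Of the 2-fold genes, 136 of the higher and 66 of the lower are bounds. Raising signals to the floor caps the ratio that a dim gene can reach, so shares at different brightness cannot be compared directly. Where the brighter signal lay between the floor and the array median, 6.23% of 1829 genes were higher and 3.01% lower, and where it lay over 4 times the median, 11% of 4518 genes were higher and 13.5% lower.

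Within the arrays, 2685 genes had 2 or more probe sets above the floor in both media. The log2 ratios of 2 probe sets of one gene differed with an SD of 0.50 and a median size of 0.26, and 93.9% of these differences were under 1. Only 2 genes had probe sets that were at least 2-fold in opposite directions. This spread describes how probes of one transcript differ on the same RNA and is no replicate error of the culture. The genes past 2-fold had 931 other probe sets above the floor on at least 1 control array. Of these, 585, or 62.8%, were at least 2-fold the same way. The same sign was seen in 887, or 95.3%, and 3 were at least 2-fold opposite.

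**Figure D1:**
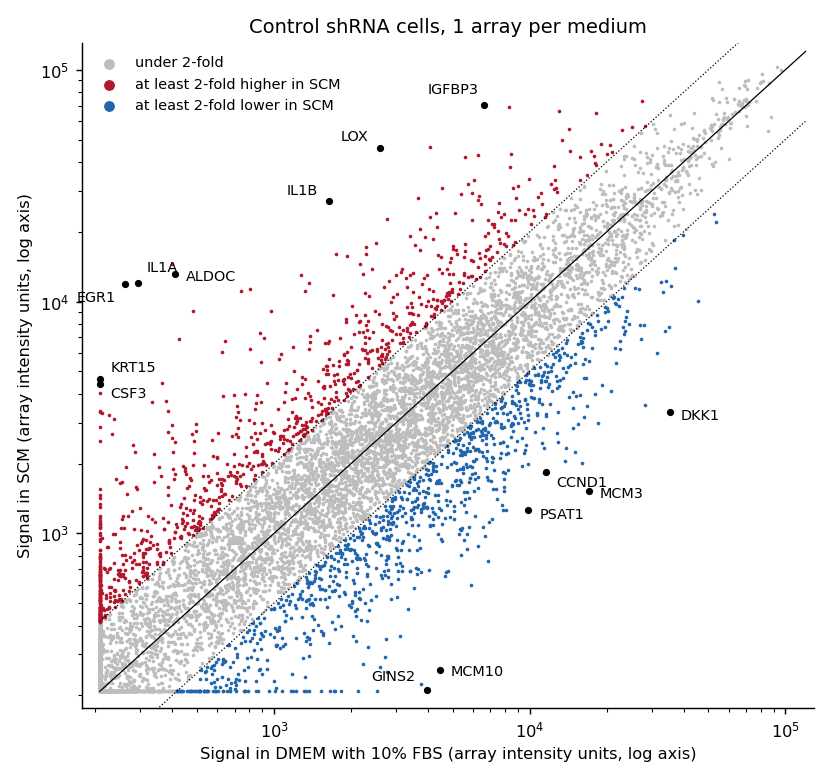
Signal of each of 11963 genes in DMEM with 10% FBS (x axis) and in SCM (y axis), control shRNA cells, 1 array per medium, in array intensity units on log axes, with signals under the floor of 208 drawn at it. Solid line, equal signals, dotted lines, 2-fold, red, 943 genes higher in SCM, blue, 966 genes lower. EGR1 and IL1A lie far above the lines and GINS2 and MCM10 far below.

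The 15 highest ratios among genes that were bright on at least 1 array belonged to genes of varied function, and 8 of the 15 stood on a gene list. EGR1, an immediate early zinc finger factor, read 260 in DMEM and 11912 in SCM, a 45.8-fold difference, while the second probe set for it had 130 and 5113. The inflammatory cytokine gene IL1A read 293 and 12038, 41.1-fold higher, though its other probe set stayed under the floor with 84.7 and 142. NOX5, which encodes a calcium-activated NADPH oxidase, was 36.3-fold higher, with 398 and 14462. All of them were near the background in serum and bright in SCM. The glycolytic aldolase gene ALDOC was 32.2-fold higher, the collagen cross-linking oxidase gene LOX 17.7-fold, the autophagy regulator gene DEPP1 18.9-fold and IL1B 16.7-fold. Bounds were at least 22.2-fold for the keratin gene KRT15, 21.2-fold for the granulocyte growth factor gene CSF3, 19.4-fold for the lipoprotein lipase inhibitor gene ANGPTL4, 16.2-fold for the complement gene CFP and 16-fold for the protease inhibitor gene SPINT1. The list was completed by the cystatin gene CST1 with 16.3-fold, the angiogenic ribonuclease gene ANG with 15.5-fold and the nuclear envelope gene SPAG4 with 15-fold.

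Among the 15 lowest ratios were 5 genes of DNA replication. GINS2, a subunit of the replicative helicase complex, read 3947 in DMEM and 210 in SCM, 18.8-fold lower, and MCM10, which helps to start that helicase, read 4442 and 256, 17.3-fold lower. MCM3, another helicase subunit gene, read 17044 and 1529. All 3 were bright in serum, and GINS2 and MCM10 ended near the floor in SCM. CCNE2, which encodes cyclin E2 of the G1/S transition, had a log2 ratio of -3.46 and the origin licensing gene CDC6 had -3.18. Also in this group were DSCC1, a factor of sister chromatid cohesion, with -3.21, which has a second probe set under the floor on both arrays, and CTPS1, the enzyme that makes CTP, with -3.3. DKK1, a secreted WNT inhibitor, read 35378 and 3321, 10.7-fold lower, and ID3, an inhibitor of basic helix-loop-helix factors, read 3109 and 360, 8.64-fold lower. The clathrin adaptor gene AP1M2 had -4.08 and the endosome gene MICALL1 had -3.29. For the ribosome assembly gene PAK1IP1 the log2 ratio was at most -3.61, for the long non-coding RNA gene LINC00472 -3.35, for the sugar phosphatase gene TIGAR -3.14 and for the filaggrin gene FLG -3.05.

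**Figure D2:**
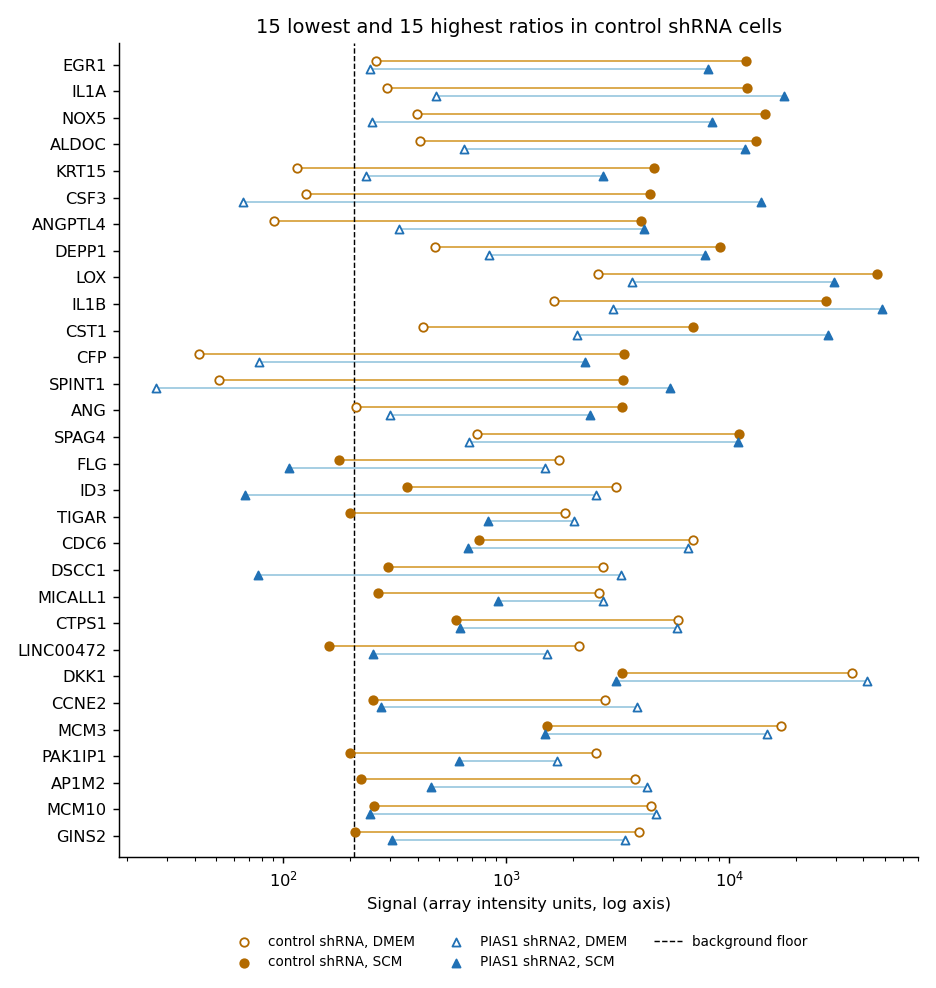
Deposited signal (x axis, array intensity units, log axis) of the 15 genes with the lowest and the 15 with the highest ratio of SCM over DMEM in control shRNA cells (y axis), on all 4 arrays. Control shRNA is drawn as circles, PIAS1 shRNA2 as triangles, with filled symbols for SCM and open ones for DMEM, and the dashed line is the floor of 208. EGR1 goes from 260 to 11912 and GINS2 from 3947 to 210, and the PIAS1 shRNA2 arrays differ the same way in each of these genes.

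Genes of DNA replication were lower in SCM. Of 39 measured genes of DNA replication and nucleotide supply, 37 were at least 2-fold lower and none was higher, or 94.9% beside 8.07% of all genes, with a median log2 ratio of -2.19 beside 0 over all genes. The other members, RFC5 of the clamp loader with -0.97 and RPA2 of the single-strand binding complex with -0.9, were lower too. The MCM subunits of the helicase were lower, with -3 for MCM2, -3.48 for MCM3, -2.63 for MCM4, -2.45 for MCM5, -2.75 for MCM6 and -2.39 for MCM7. PCNA, the sliding clamp of DNA polymerases, read 16238 in DMEM and 3178 in SCM. The nucleotide enzymes were high in both media and differed in the same direction, with 45659 and 10008 for the thymidylate synthase gene TYMS and 21694 and 5411 for RRM2 of ribonucleotide reductase. E2F1, a driver of this programme, had -2.2.

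The letters of an E2F site (TTTCCCGC, TTTGGCGC, TTTCGCGC or TTTGCCGC on either strand) were sought in the 250 bases before each RefSeq gene start. They stood in 15 of 49 such promoters of 36 replication genes, or 30.6%, in 2.79% of all 35116 promoters, in 3.73% of those of genes on the array, in 8.57% of promoters of genes at least 2-fold lower in SCM and in 2.42% of those of genes at least 2-fold higher. The list is made of the kind of genes that E2F factors drive, so its 30.6% describes the list and not the arrays. CDC25A, a phosphatase of the G1/S transition that was chosen after its values were seen, read 1708 and 50.1, at least 8.21-fold lower. Stretches of 3 promoters are printed to show where these letters lie in genes with low ratios, with the letters in capitals. In RefSeq GRCh38.p14 they are GINS2 at chr16:85688955-85689025 on the minus strand, MCM3 at chr6:52284869-52284956 on the minus strand and CDC25A at chr3:48188418-48188501 on the minus strand, and the capitals begin 31, 174 and 44 bases before the start.
GINS2: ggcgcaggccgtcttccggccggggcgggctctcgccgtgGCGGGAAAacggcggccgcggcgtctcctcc
MCM3: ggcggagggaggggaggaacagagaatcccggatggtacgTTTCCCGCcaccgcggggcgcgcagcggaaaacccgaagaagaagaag
CDC25A: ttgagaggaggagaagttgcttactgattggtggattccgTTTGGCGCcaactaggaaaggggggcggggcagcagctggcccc

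Mitotic genes were lower to a smaller extent. Of 42 measured, 33 were at least 2-fold lower, or 78.6%, none was higher, and the median log2 ratio was -1.58. CDC20, the activator of the anaphase-promoting complex, read 14801 in DMEM and 2854 in SCM, with -2.37. The mitotic kinase gene PLK1 had -1.6, AURKA -1.77 and AURKB -2.07, and the proliferation marker MKI67 had -1.87. CDK1, the kinase of mitotic entry, stood at the edge with -1.03, and the securin gene PTTG1, with 36922 and 29639, had -0.32. The ordering of replication below mitosis held in the medians, and every member of both lists had a negative log2 ratio. In bulk RNA a lower share of cycling cells and less of these transcripts per cell cannot be told apart.

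The cell cycle homology region (TTTGAA or TTCGAA on either strand), which the DREAM and B-MYB complexes bind, stood in 22 of 45 promoters of 35 mitotic genes, or 48.9%. It stood in 14.3% of all promoters, in 11.6% of those of genes on the array, in 14% of those of genes lower in SCM, in 10.1% of those of genes higher and in 6.12% of those of the replication genes, which describes the 2 lists and not the arrays. The cyclin gene CCNB1 was also looked up and gave no match. PLK1 and CDC20 are shown with these letters in capitals, PLK1 at chr16:23678820-23678888 on the plus strand and CDC20 at chr1:43358763-43358961 on the plus strand. The capitals begin 29 bases before the start in PLK1 and 178 and 65 bases before it in CDC20.
PLK1: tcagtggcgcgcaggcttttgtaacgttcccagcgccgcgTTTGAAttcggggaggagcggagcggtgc
CDC20: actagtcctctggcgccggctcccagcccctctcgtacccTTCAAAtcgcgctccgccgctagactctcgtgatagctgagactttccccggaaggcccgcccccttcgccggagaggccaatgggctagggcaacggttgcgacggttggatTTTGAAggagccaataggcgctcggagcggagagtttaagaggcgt

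Drivers of G1 were lower and some of its inhibitors higher. CCND1, the gene of cyclin D1, read 11550 in DMEM and 1837 in SCM, 6.29-fold lower, and its partner kinase gene CDK4 had a log2 ratio of -1.33. CDKN1A, which encodes the CDK inhibitor p21, read 2291 and 16066, 7.01-fold higher, and CDKN1C, which encodes p57, had 1.78. The p27 gene CDKN1B had 0.62. Of 18 G1 genes 5 were lower, or 27.8%, and 2 higher, or 11.1%, beside 8.07% and 7.88% of all genes. CDKN1A is also a target of p53. Of 16 p53 targets 4 were at least 2-fold higher, or 25%, and 1 lower, or 6.25%, with a median of 0.46. Among them the death receptor gene FAS had 1.2, TNFRSF10B 1.13 and the pro-apoptotic gene BAX -0.24.

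DNA repair genes of homologous recombination, the Fanconi pathway and mismatch repair had a median log2 ratio of -1.18, with 14 of 22 at least 2-fold lower and none higher. The nuclease gene EXO1 had -3.02, and the recombination gene RAD54L and the helicase gene BRIP1 were at most -2.67 and -2.49. RAD50 of the break-sensing complex, with 2756 and 2431, had -0.18. Chromatin genes that copy marks at the replication fork were also among the lower. The maintenance DNA methyltransferase gene DNMT1 read 7199 in DMEM and 1558 in SCM, and EZH2, the methyltransferase of the polycomb complex, read 3762 and 682. Of 23 genes of DNA methylation and polycomb 4 were lower, or 17.4% beside 8.07% of all genes, and none higher. Their median log2 ratio was -0.4, and the de novo methyltransferase gene DNMT3A was under the floor in both media. Histone genes split. The variant gene H2AX had -2.39, while H2AC6 had 2.31 and H2BC5 had 1.94, and 4 of 13 histone genes were higher.

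Ribosome assembly was lower and ribosomal protein mRNA was not. Of 31 measured genes of ribosome biogenesis, 16 were at least 2-fold lower, or 51.6%, and none was higher, with a median of -1.07. RRS1 of the large subunit pathway read 4711 in DMEM and 680 in SCM, with a log2 ratio of -2.79, NIP7 had -2.2 and the nucleolar RNA helicase gene DDX21 -1.66. The nucleolar genes NCL and FBL had -0.82 and -0.63. MYC, a driver of this programme, read 9072 and 4617, with -0.97. The 39 cytosolic ribosomal protein genes lay between -0.33 and 0.24 with a median of 0.07, and the 52 genes of the respiratory chain and ATP synthase had a median of 0.01 with 1 member at least 2-fold lower, ATP5MC1 with -1.27. Both groups were thus near level between the 2 arrays.

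Protein quality control differed by compartment. Of 15 heat shock genes of the cytosol and mitochondria, 5 were at least 2-fold lower, or 33.3%, and none higher. Among the lower were FKBP4 of the HSP90 cycle with -1.9, HSPH1 with -1.24 and DNAJB1 with -1.04. Proteasome subunits had a median of -0.52, with 30 of 31 negative. At least 2-fold lower were 4, or 12.9%, not far from the 8.07% of all genes. The proteasome activator gene PSME3 read 14721 and 3475. In the endoplasmic reticulum the direction was upward. All 19 genes of the unfolded protein response had positive log2 ratios and 7 were at least 2-fold higher. The chaperone gene HSP90B1 read 8811 in DMEM and 28004 in SCM, with 1.67, the glycoprotein disposal gene EDEM1 had 1.63 and HSPA5, the chaperone BiP, had 1.01.

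The amino acid response driven by ATF4 had members in both directions. Of 37 genes 8 were at least 2-fold lower, or 21.6%, and 6 higher, or 16.2%, beside 8.07% and 7.88% of all genes. The serine synthesis gene PSAT1 read 9890 in DMEM and 1261 in SCM, with a log2 ratio of -2.97, and the amino acid carrier genes SLC7A5 and SLC7A11 had -2.19 and -2. The asparagine synthetase gene ASNS had -1.67. Transfer RNA synthetase genes of the list were all within 2-fold. Another serine synthesis gene, PSPH, was among the higher with 5163 and 16751. The other higher members were the angiogenic factor gene VEGFA with 2.46 and the lipoprotein receptor gene VLDLR with 3.61, both known to respond to low oxygen, ATF3 with 1.74, the mTOR inhibitor gene DDIT4 with 1.21 and the transcription factor gene CEBPB with 1.19. ATF4 itself was level with 14173 and 13000.

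Genes that respond to low oxygen were higher in SCM. Of 19 hypoxia targets outside glycolysis, 18 were at least 2-fold higher, or 94.7% beside 7.88% of all genes, and the median log2 ratio was 2.12. The remaining member, the oxygen sensor gene EGLN1, had 0.08. LOX read 2588 in DMEM and 45874 in SCM, and its other probe sets read 667 and 12305, and 2392 and 23724. The vasodilator peptide gene ADM read 4070 and 46344 and the stress gene NDRG1 read 8315 and 69073. Each was far above the floor in both media and many times higher in SCM. VEGFA read 6039 and 33293, and EGLN3, another oxygen sensor, had 2.24. Genes that modify collagen before secretion were part of it, with 2.29 for the prolyl hydroxylase gene P4HA1 and 1.32 for the lysyl hydroxylase gene PLOD1. The mitophagy receptor genes BNIP3 and BNIP3L had 1.08 and 1.45. HILPDA, a lipid droplet gene outside the list that was chosen after its values were seen, was 8.27-fold higher.

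Glycolysis was higher at selected steps. Of 22 genes 8 were at least 2-fold higher and none lower, with a median of 0.73. Isoforms and regulators known to be inducible were among them. ALDOC read 409 in DMEM and 13142 in SCM, the hexokinase gene HK2 had a log2 ratio of 2.94, the glucose transporter gene SLC2A3 2.84, the neuronal enolase gene ENO2 2.49 and the fructose bisphosphate regulator genes PFKFB4 and PFKFB3 2.29 and 1.54. Enzymes of the main chain were mostly within 2-fold, with 65821 and 83729 for LDHA, 54380 and 50762 for PKM and 51125 and 57709 for ENO1. PDK1 and PDK4, kinases that hold pyruvate back from mitochondria, had 1.4 and at least 2.9.

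The core of a hypoxia response element (ACGTG or GCGTG on either strand) stood in 21 of 24 promoters of 18 of these hypoxia genes, or 87.5%, in 43.2% of all promoters and in 51.2% of those of genes on the array. It also stood in 49.3% of promoters of genes higher in SCM and in 62% of those of genes lower, so such short letters are common whatever the direction. The list had been defined by known hypoxia targets, so its 87.5% describes the list and not the arrays. VEGFA was also looked up and gave no match. LOX and ALDOC are printed since they were measured with high ratios and hold these letters more than once, with the letters in capitals, LOX at chr5:122078260-122078484 on the minus strand and ALDOC at chr17:28576896-28577145 on the minus strand. The capitals begin 185, 116, 98 and 42 bases before the start in LOX and 240, 108, 45 and 28 bases before it in ALDOC.
LOX: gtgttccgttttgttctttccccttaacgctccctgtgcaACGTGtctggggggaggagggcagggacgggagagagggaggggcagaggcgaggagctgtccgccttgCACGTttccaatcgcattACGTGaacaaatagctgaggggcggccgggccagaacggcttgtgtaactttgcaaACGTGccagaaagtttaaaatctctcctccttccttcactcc
ALDOC: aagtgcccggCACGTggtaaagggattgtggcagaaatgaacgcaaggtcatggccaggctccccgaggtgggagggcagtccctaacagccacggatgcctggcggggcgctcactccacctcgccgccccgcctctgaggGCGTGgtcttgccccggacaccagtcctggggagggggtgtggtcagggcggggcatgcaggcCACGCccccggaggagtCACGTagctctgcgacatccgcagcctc

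Many FOXO targets were higher in SCM. Of 17 measured, 7 were at least 2-fold higher and none lower, with a median of 0.77. TXNIP, an inhibitor of thioredoxin and of glucose uptake, read 12999 in DMEM and 66350 in SCM, the quiescence gene CCNG2 read 4433 and 13847, and the ubiquitin ligase adaptor gene KLHL24 had a log2 ratio of 1.63. Several members, BNIP3 and GABARAPL1 among them, are shared with other lists, and PDK4, named above, belongs to this list. Among genes of insulin and IGF signalling the binding protein IGFBP3 read 6628 and 70746, 10.7-fold higher, and IGFBP1 read 1903 and 8172. The receptor genes INSR and IGF1R had 0.7 and 0.48, and PIK3R1, the regulatory subunit of PI3 kinase, had -1.2. The binding protein genes IGFBP4 and IGFBP5 had 0.58 and at least 0.14, and IGFBP2 was under the floor in both media.

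Immediate early factors and the feedback inhibitors of ERK were higher after 30 h. Of 23 immediate early genes 8 were at least 2-fold higher and no member was lower by as much, with a median of 0.71. After EGR1 came ZFP36, an mRNA decay factor, with 808 in DMEM and 11366 in SCM, the nuclear receptor gene NR4A2 with 237 and 3108, and JUNB with 1375 and 11977. FOS read 29.8 and 1301, at least 2.64 on the log2 scale. The group was not uniform. FOSL1, with 19482 and 10132, had -0.94, IER5, just inside 2-fold with 11761 and 5896, was lower too, and FOSB was under the floor in both media. Of 15 ERK feedback genes 7 were higher and none lower. The ERK phosphatase gene DUSP6 read 8369 and 38088, DUSP5 6289 and 27394, DUSP1 2015 and 9555, and SPRY4, a Sprouty inhibitor of receptor signalling, 3128 and 13415. Each was well above the floor in both media. DUSP2 was under the floor.

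The ligands and receptors of the EGF family were mixed. EGFR had 0.08, the receptor gene ERBB3 read 332 in DMEM and 1157 in SCM, and the ligand gene EREG had 1.25. NRG1, the neuregulin ligand gene, read 4668 and 1160, with -2.01. None of 11 FGF ligand and receptor genes was 2-fold different, and the receptor gene FGFR1 read 5861 and 5198. The promoter of EGR1 is shown since this gene had the highest ratio of the comparison and serum response factor binds CArG boxes in such promoters. A CArG box stood in 1.16% of all promoters, in 1.22% of those of genes on the array, in 1.88% of those of genes higher in SCM and in 0.82% of those of genes lower, and EGR1 held 2 within 250 bases. The stretch is EGR1 at chr5:138465334-138465445 on the plus strand, with both boxes in capitals, 105 and 83 bases before the start.
EGR1: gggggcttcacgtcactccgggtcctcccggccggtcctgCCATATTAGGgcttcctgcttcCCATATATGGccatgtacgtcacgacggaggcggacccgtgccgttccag

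YAP/TAZ targets were lower in SCM. Of 16 measured, 9 were at least 2-fold lower, or 56.2%, and 1 was higher, with a median of -1.2. The median was -0.79 with the floor at the array median, and -0.55 with probe sets chosen first that have no x or s in their names. AMOTL2, a YAP-binding scaffold gene, read 7836 in DMEM and 1256 in SCM, and the growth regulator gene FJX1 read 6957 and 1123. The matrix signalling genes CCN1 and CCN2 read 35844 and 11681, and 5841 and 1725. ANKRD1, a cardiac ankyrin gene, read 771 and 85.5, at most -1.89 on the log2 scale. Some members went the other way. The clotting initiator gene F3 had 0.43, and WWTR1, the gene of TAZ itself, had 1.22, while YAP1 had -0.22 and the partner factor gene TEAD1 had -1.26. WWTR1 had probe sets from 0.27 to 1.28.

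The TEAD site (GGAATG on either strand) stood in 9 of 19 promoters of 15 of these genes, or 47.4%, in 11.9% both of all promoters and of those of genes lower in SCM, in 10.2% of those of genes on the array and in 9.94% of those of genes higher. The list had been defined by known YAP/TAZ targets, so this share describes the list and not the arrays. CCN1 and FJX1 were also looked up and gave no match. Stretches of ANKRD1, CCN2 and AMOTL2 are printed with these letters in capitals, ANKRD1 at chr10:90921170-90921337 on the minus strand, CCN2 at chr6:131951422-131951581 on the minus strand and AMOTL2 at chr3:134374471-134374556 on the minus strand. The capitals begin 220 and 128 bases before the start in ANKRD1, 169, 104 and 95 in CCN2 and 69 in AMOTL2.
ANKRD1: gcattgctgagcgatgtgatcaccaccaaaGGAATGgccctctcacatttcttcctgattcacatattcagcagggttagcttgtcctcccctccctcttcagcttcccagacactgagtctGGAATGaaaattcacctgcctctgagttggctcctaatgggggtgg
CCN2: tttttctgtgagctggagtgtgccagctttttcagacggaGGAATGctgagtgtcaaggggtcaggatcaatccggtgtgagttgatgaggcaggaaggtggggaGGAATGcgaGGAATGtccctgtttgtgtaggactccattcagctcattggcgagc
AMOTL2: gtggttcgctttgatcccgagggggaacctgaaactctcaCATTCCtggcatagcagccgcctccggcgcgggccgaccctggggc

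SRF and actomyosin genes, which serum also drives, did not share this direction. Of 20 measured, 2 were lower, or 10%, and 1 higher, or 5%, beside 8.07% and 7.88% of all genes. The median was 0.03. TAGLN had a log2 ratio of -1.48 and TPM1 -1.4, while ACTB, with 95873 and 99811, and VCL, with 22454 and 23634, were level. In the TGF-beta and BMP group ID3 and the activin inhibitor gene FST were lower with -3.11 and -2.54, while the activin subunit gene INHBA read 1926 in DMEM and 15735 in SCM and TGFB1 read 3483 and 13298. ID1 read 16740 and 10766. In the WNT pathway of 30 genes only DKK1 was at least 2-fold lower, and LRP5, a WNT co-receptor, read 3857 and 12695. Both WNT5A signals were under the floor. NOTCH3 read 114 and 704, at least 1.76 on the log2 scale, and the Notch target gene HES1 had 0.86.

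**Figure D3:**
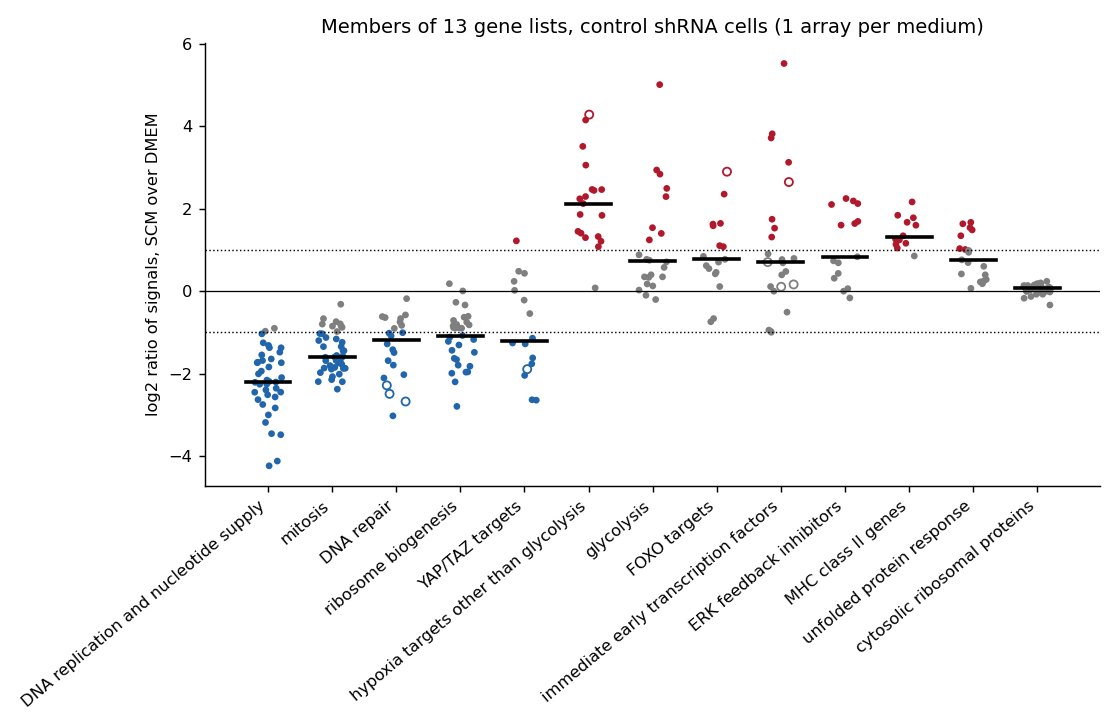
Log2 ratio of signals, SCM over DMEM (y axis), of the measured genes of several lists (x axis) in control shRNA cells, 1 array per medium. Points are genes, open circles are bounds, bars are list medians and dotted lines mark 2-fold. The medians run from -2.19 for DNA replication to 2.12 for hypoxia targets, with 0.07 for cytosolic ribosomal proteins.

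Several cytokine genes had high ratios. Of 23 cytokine and colony-stimulating factor genes 9 were at least 2-fold higher, or 39.1% beside 7.88% of all genes. Lower was 1, or 4.35%, the feedback inhibitor gene SOCS2 with -1.04. IL1B read 1633 in DMEM and 27266 in SCM, and the receptor subunit gene IL1RAP read 804 and 6243. IL6 read 13365 and 49922, IL11 1065 and 5931 and the leukemia inhibitory factor gene LIF 2293 and 7892. CSF3 was under the floor in serum, with 126, and read 4421 in SCM. Targets and regulators of NF-kappaB were divided. Of 28, 9 were higher, or 32.1%, and 1 lower, or 3.57%, with a median of 0.25. Among the higher, the complement gene CFB had 2.15, ICAM1 1.81 and CXCL8 1.24. The chemokine gene CCL20 read 31.9 and 2864, at least 13.8-fold higher, and PTGS2, the COX-2 gene, 31.7 and 2496, at least 12-fold. The feedback inhibitor gene NFKBIA had -0.56, TNFAIP3 -0.12 and the chemokine gene CXCL1 -0.5.

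MHC class II genes were higher together. Of 12, 11 were at least 2-fold higher, or 91.7%, and HLA-DMA had 0.85. The median log2 ratio was 1.3. HLA-DRA, the alpha chain gene of HLA-DR, read 18925 in DMEM and 48008 in SCM, CD74, the chaperone of class II, 22884 and 54875, and HLA-DRB1 18152 and 64984. The probes of HLA-DR beta genes can read related alleles and copies, so the split between HLA-DRB1 and HLA-DRB4 is uncertain. CIITA, the co-activator of these genes, read 297 and 613, with 1.05 on this probe set, while its others were under the floor. MHC class I genes were bright in both media and mostly within 2-fold, with 63094 and 74965 for B2M and 27253 and 53245 for HLA-E. Of 40 interferon-response genes 10 were higher and 1 lower, with a median of 0.53. The GTPase gene GBP2 read 2228 and 13207 and the antiviral membrane gene IFITM1 3560 and 17470, while IFIT1, IFIT2 and IFIT3 had -0.15, -0.46 and -0.41.

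Many genes of the matrix and of adhesion were higher. Of 37 collagen, laminin and integrin genes 15 were at least 2-fold higher, or 40.5%, and 1 was lower, the matricellular gene THBS1 with -1.1. Fibronectin, FN1, read 8481 in DMEM and 43133 in SCM, the laminin subunit gene LAMB3 5116 and 24201 and the collagen receptor gene ITGA2 1752 and 15962. The main integrin partner ITGB1, with 39743 and 47903, had 0.27. Of 23 matrix proteases and inhibitors 10 were higher and none lower. The urokinase receptor gene PLAUR read 6260 and 42898, the metalloprotease gene ADAM8 2293 and 17127, MMP14 5714 and 32217, and the gelatinase gene MMP9 398 and 2947. The inhibitor gene TIMP1 read 27560 and 73479. Proteases and inhibitor were thus higher together, and MMP1, MMP3, MMP10 and MMP13 were under the floor in both media.

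Epithelial markers of the luminal type were higher in part. Of 23, 10 were at least 2-fold higher, or 43.5%, and none was lower, yet 5 of the list were under the floor in both media, among them CDH1, FOXA1 and PGR. The tight junction gene CLDN7 read 640 in DMEM and 6788 in SCM, the keratin gene KRT19 4181 and 18700 and the trefoil factor genes TFF1 and TFF3 233 and 2671, and 290 and 1551. The keratins of simple epithelium were lower within 2-fold, with -0.79 for KRT18 and -0.64 for KRT8, and the luminal factor gene GATA3 had -0.96. Of the basal markers KRT15 was at least 22.2-fold higher, while KRT5 and KRT14 were under the floor. Of 18 mesenchymal genes 13 were above the floor, 11 of them with positive log2 ratios, and 4 were at least 2-fold higher and 1 lower. The higher were FN1 with 2.35, the fibronectin receptor subunit gene ITGA5 with 2.11, the transcription factor gene SNAI1 and the gelatinase gene MMP2 with at least 1.04. VIM had 0.13, ZEB1 0.82, SNAI1 at least 1.84 and SNAI2 -1.71, and CDH2 and TWIST1 were at or near the floor.

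Genes used as marks of breast stem cells differed singly. ALDH1A3, an aldehyde dehydrogenase that makes retinoic acid, read 1364 in DMEM and 6220 in SCM, and ALDH3A1 read 25.5 and 517, at least 1.31 on the log2 scale. ALDH1A1 and PROM1 were under the floor in both media. CD44 had 0.85 and CD24, whose low level is part of the stem cell phenotype, read 2144 and 7361, with 1.78. The drug pump gene ABCG2 had -1.3. Of 24 genes 7 were higher, or 29.2%, and 1 lower, or 4.17%, and 8 were under the floor in both media. Retinoid genes had a median of 0.81, with 5 of 14 higher and 1 lower, among them the binding protein gene CRABP2 with 1.53 and the receptor gene RARA with 1.41.

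Glucocorticoid and other steroid targets were not higher throughout. Of 14, 7 were at least 2-fold higher, or 50% beside 7.88% of all genes, and 1 lower, or 7.14%. TSC22D3, the leucine zipper gene GILZ, read 1705 in DMEM and 10696 in SCM, and CEBPD read 6442 and 26396. FKBP5, a further such target, read 611 and 345. Several members, ANGPTL4 and DUSP1 among them, belong to other lists as well. Of 7 targets of the aryl hydrocarbon receptor 2 were higher. TIPARP had 1.26 and CYP1B1 0.85, and the inducible gene CYP1A1 read 365 and 261.

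Genes of cholesterol synthesis and uptake differed about as often as all genes. Of 20 measured, 2 were higher, or 10%, and 2 lower, also 10%, with a median of 0.26. The shares of all genes were 7.88% and 8.07%. INSIG1, a sensor of sterols, read 7578 in DMEM and 18534 in SCM, while HMGCS1 had 0.46 and the thiolase gene ACAT2 had -1.68. SCD, the stearoyl desaturase gene, had 1.41, and FASN, with 8035 and 6567, had -0.29. The exporters of cholesterol were higher, with 2.84 for ABCG1 and 1.37 for ABCA1, and all 7 LXR targets had positive log2 ratios. Of 40 lysosome and autophagy genes 5 were higher, or 12.5%, and 1 lower, or 2.5%, with a median of 0.37. WIPI1 of early autophagosomes had 1.65 and the cathepsin genes CTSB and CTSL had 0.93 and 0.99.

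Other stress and survival groups are read beside 7.88% of all genes higher and 8.07% lower. Of 30 NRF2 targets 4 were higher, or 13.3%, and 1 lower, or 3.33%. NQO1 read 23967 in DMEM and 19610 in SCM, and the cystine carrier gene SLC7A11 had -2. Of 11 genes of metallothioneins and zinc transport 1 was higher, or 9.09%, and none lower, with a median of 0.01. The higher one was MT3 with at least 1.08. Metallothionein MT2A read 72002 and 72563. The probe sets of MT1X differed, with 45240 and 46866, or 0.05, on the brighter and 13049 and 32730, or 1.33, on the other. Why they differed was not tested. Of 12 genes of iron handling 3 were higher, or 25%, and none lower. The transferrin receptor gene TFRC read 42926 and 42038 and the reductase gene STEAP3 had 1.4. Of 15 BCL2 family genes 3 were higher, or 20%, the survival gene MCL1 with 1.63 and the mitophagy receptors named above. BCL2L1, the gene of BCL-XL, had -0.16. S100A4 read 57218 and 61448. Among 11 PIAS and SUMO genes none was higher and 2 were lower, or 18.2%. These were the SUMO protease gene SENP3 with -1.58 and the SUMO-activating subunit gene SAE1 with -1.26. PIAS1 itself read 1383 and 1814.

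Markers of cells that a culture of this line should not hold were above the floor in part. Of 14 haematopoietic and endothelial markers 7 were above the floor, with a summed signal of 3282 in DMEM and 5293 in SCM, and PTPRC, VWF and CDH5 were under it in both media. PECAM1 read 339 and 2188, with log2 ratios from at least 2.31 to 2.69 over its 3 probe sets, and CD8A 581 and 229. Of 11 fibroblast and stromal markers 5 were above the floor and 3 at least 2-fold higher, with a summed signal of 2911 and 5206, and FAP, PDGFRA, LUM and POSTN were under it in both media. Of the 72 genes of other tissues 3 were at least 2-fold higher and none lower, with MB at 1474 and 7543. Whether these signals bear on any result above was not tested.

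**Figure D4:**
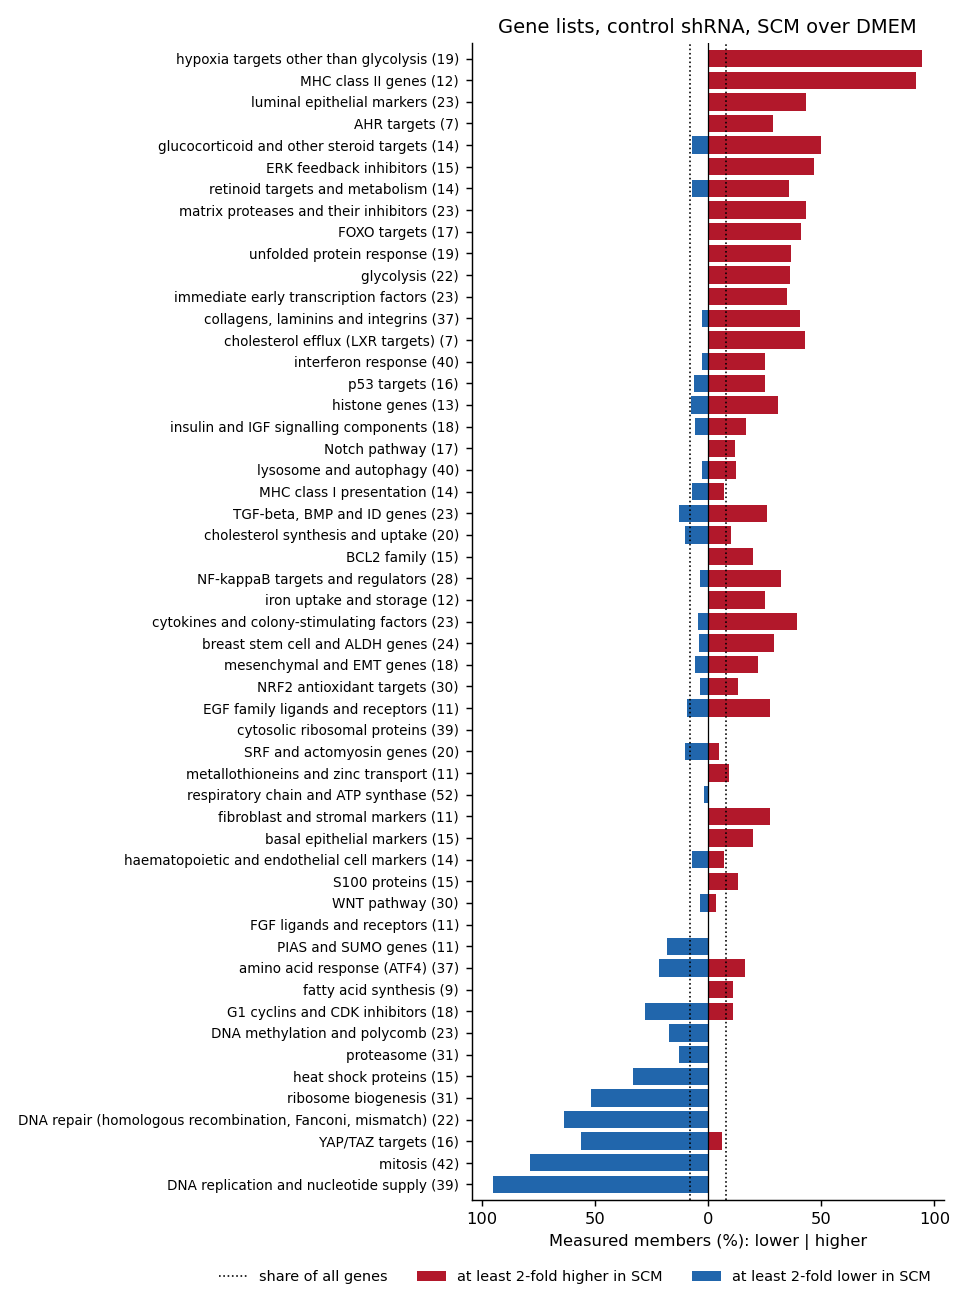
Share of measured members (x axis, %) at least 2-fold higher (red, right) or lower (blue, left) in SCM than in DMEM, control shRNA cells, for each of 53 gene lists (y axis, number measured in brackets), ordered by median log2 ratio. Dotted lines are the shares of all genes, 7.88% higher and 8.07% lower. DNA replication, with 94.9% lower, and hypoxia targets, with 94.7% higher, are the extremes.

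The same media were set against each other in the PIAS1 shRNA2 line, which shares no array with the control pair and is not its replicate. There 977 genes were at least 2-fold higher, or 8.17% of all genes, and 937 lower, or 7.83%. Of the 943 genes higher in control cells, 659 were at least 2-fold higher there too, 69.9% of the control list and 67.5% of the other, and 905 had a positive log2 ratio. Of the 966 lower genes, 677 were at least 2-fold lower there too, 70.1% and 72.3% of the lists, and 946 had a negative log2 ratio. In the opposite direction, by at least 2-fold, were 1 gene that was higher in control cells and 3 that were lower. Over 7508 genes above the floor on all arrays, the log2 ratios of the 2 lines were correlated across genes with a Pearson r of 0.88 and a Spearman rho of 0.86, and genes are not independent replicates. The SD of the difference was 0.44, and 96.5% of these genes were within 2-fold of each other.

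All 15 highest and all 15 lowest genes of the control comparison were at least 2-fold the same way in the PIAS1 shRNA2 line, with log2 ratios from 2.97 to 6.06 and from -4.26 to -1.28. EGR1 read 246 in DMEM and 8065 in SCM there, and GINS2 had -3.47. The list medians in control and PIAS1 shRNA2 cells stood at -2.19 and -2.37 for DNA replication, at 2.12 and 1.86 for hypoxia targets, at -1.2 and -0.98 for YAP/TAZ targets and at -1.07 in both for ribosome biogenesis. Further apart were mitosis, with -1.58 and -2.22, and NF-kappaB targets and regulators, with 0.25 and 1.32. CXCL3, a chemokine gene, had 0.36 in control and 3.5 in PIAS1 shRNA2 cells, and CCN2 had -1.76 and -4.58. The mitotic kinesin gene KIF23 had -1.97 and at most -4.22. With 1 array per condition none of these differences between the lines was tested.

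**Figure D5:**
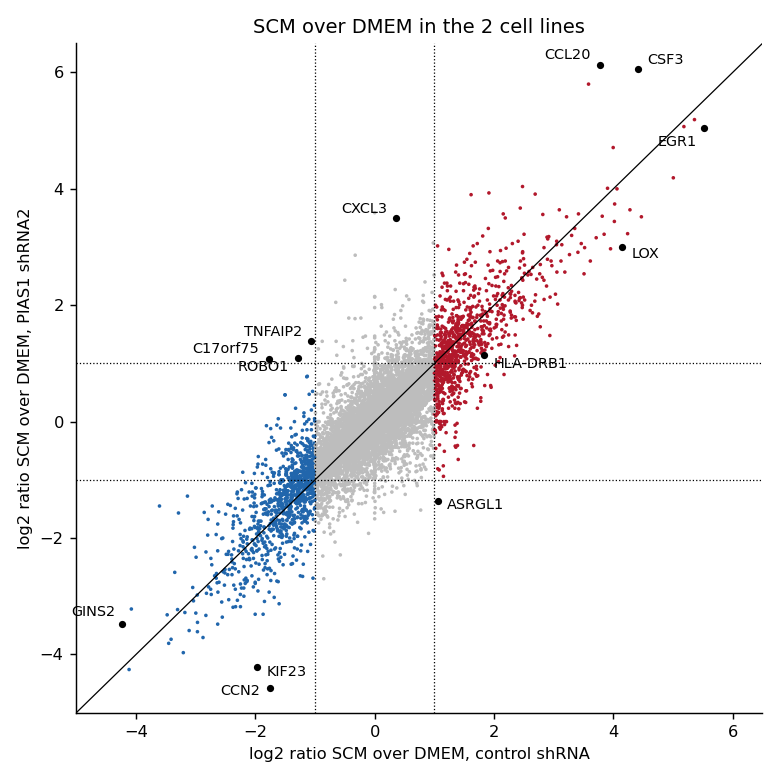
Log2 ratio of SCM over DMEM in control shRNA cells (x axis) and in PIAS1 shRNA2 cells (y axis) for 11963 genes, 1 array per condition, signals raised to the floor. Colors mark genes at least 2-fold higher (red) or lower (blue) in control cells, the solid line equal ratios and dotted lines 2-fold. Most colored genes lie near the line, while CXCL3 lies at 0.36 and 3.5 and TNFAIP2, C17orf75 and ROBO1 lie opposite.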

How the data were processed

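RNA of MDA-MB231 cells with control shRNA or PIAS1 shRNA2, kept for 30 h in either SCM or DMEM with 10% FBS, was measured on 4 human Affymetrix expression arrays, 1 per condition. The authors deposited array intensities per probe set, named MAS5 in the submitters' processing notes, with version and settings not given in the sources used here. All 4 arrays had a trimmed mean of 2501, so the deposited intensities had been scaled, and no further scaling was applied. For arrays their number limits the precision.

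Of 22277 probe sets, 19070 carried 1 gene symbol in the platform annotation, 1043 several and 2164 none, and 19058 of those with 1 symbol matched RefSeq by Entrez identifier, with no symbol in need of an update. Where several probe sets served a gene, the one brightest in mean log2 intensity over all arrays stood for it. Intensities under 208 were raised to this floor, the 75th percentile over 72 genes of other tissues, read by 114 probe sets, on the array where it was highest. Log2 ratios of SCM over DMEM were taken, and 2-fold was the limit for counts. The ratio calculation was tested on simulated data.

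The named genes were the 15 highest and 15 lowest ratios among genes whose brighter signal reached its array's median, the key members of each list, and up to 6 members of a list with the largest ratios of at least 2-fold. Other genes named, the motifs and the printed promoters were chosen after their values were seen. The members and all 53 gene lists were chosen with earlier results of these data known. Promoters were the 250 bases before each RefSeq start in GRCh38.p14, and of a printed gene with several starts the one with most matches is shown. Alternatives were no floor, a floor at the median signal of 605, scaling to a common median, quantile normalization, the mean of a gene's probe sets, and preference for probe sets without x or s in their names. The work was done in Python 3.11.15 with pandas 2.3.3, NumPy 2.4.6, matplotlib 3.10.9 and SciPy 1.17.1.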

Additional observations from a re-analysis of the deposited data

Results flagged for a closer look

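The medium went with opposite differences of at least 2-fold in the control shRNA and PIAS1 shRNA2 lines for 4 genes, with 1 array per condition, and the difference between the lines was not tested. ASRGL1, an asparaginase gene, read 87.7 in DMEM and 434 in SCM with control shRNA and 538 and 76.8 with PIAS1 shRNA2, a log2 ratio 2.43 above that of the PIAS1 shRNA2 line. C17orf75 read 876 and 256 against 304 and 641, a difference of -2.86 between the log2 ratios. ROBO1, an axon guidance receptor gene, read 506 and 187 against 359 and 765, a difference of -2.37. TNFAIP2, a TNF-inducible gene, read 18281 and 8786 against 8377 and 21735, a difference of -2.43. Signals of ASRGL1 and ROBO1 lay under the floor of 208 on 1 array of a pair, so their values are bounds.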

How the results depend on the processing

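Without a floor, the counts of genes past 2-fold were 2216 higher and 1618 lower in SCM, against 943 and 966 with it. Under the other alternatives the counts stayed between 631 and 934 higher and between 798 and 1141 lower. With the mean of the probe sets, ACTA2 turned to -0.17, and with probe sets without x or s preferred, ERAP1 turned to -0.14. Each alternative reads further probe sets of the gene. Of the 7 lists with a median of at least 1 in size, 4 kept it with the floor at 605 and 5 under either choice of probe sets. Medians ranged over the alternatives from -2.28 to -2.18 for DNA replication, from -1.67 to -1.5 for mitosis, from 1.86 to 2.15 for hypoxia targets and from -1.29 to -0.55 for YAP/TAZ targets. Of 243 named genes at least 2-fold, between 209 and 243 remained so. No paired analysis was possible because each condition had 1 array. Signals under 208 give no order.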
